A study of Mus musculus with 6 samples.

Results

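The integrated stress response genes described here were Atf4 and Ddit3, which encodes CHOP, together with Cebpb, Nupr1, Trib3, Ppp1r15a, Asns, Slc3a2, Sesn2 and Gtpbp2. They were chosen by name as the ATF4 branch and its targets, with earlier results of these data known. Shares of all genes given beside the members are therefore a description and no independent test. All 10 were among the 7746 genes, of 12394 named on the array, that had a probe set past the filter on mean signal. Each gene is given first by its brightest probe set. A signal is in the linear intensity units of the deposited values, and a difference is on the log2 scale, where 1 is 2-fold.

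B16 cells, a mouse melanoma line, were profiled on 6 Affymetrix arrays, with 1 array in each group. All cells were moved to serum-free medium 2 h before the exposure. Chronic hypoxia was 3 h without a break, and cyclic hypoxia was 3 periods of 1 h separated by 30 min of reoxygenation, both at less than 1% oxygen. Cells were collected 1 h after the end of the exposure or at its end. In the hypoxic groups that last hour was reoxygenation. The normoxia arrays were collected after 3 h and after 1 h more, and nothing in the labels matches either to the cyclic regime, which took longer in all. No group had a replicate, so a difference between arrays carries no replicate error, and it is not stated that the arrays came from separate cultures.

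The integrated stress response starts with kinases that sense stress in the endoplasmic reticulum, lack of amino acids, lack of heme or double-stranded RNA and phosphorylate the initiation factor eIF2. General translation falls while the ATF4 mRNA is translated more, and ATF4 protein then switches on genes for amino acid supply, for feedback on eIF2 phosphorylation and, through CHOP, for cell death. Lack of oxygen is a known trigger through the kinase PERK. Arrays measure mRNA only, so the translation of Atf4 is outside these data.

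The promoters of Asns, Nupr1 and Trib3 are shown because they were the members with a match to the C/EBP-ATF composite site, the kind of element that ATF4 binds with a C/EBP partner. The sequences are from RefSeq on build GRCm38.p6, 5′ to 3′ on the strand of the gene. The windows are chr6:7693210-7693459 (minus strand) for Asns, chr7:126625471-126625720 (minus strand) for Nupr1 and chr2:152344031-152344310 (minus strand) for Trib3. Capitals mark the match to TGATGNAA on either strand.
Asns: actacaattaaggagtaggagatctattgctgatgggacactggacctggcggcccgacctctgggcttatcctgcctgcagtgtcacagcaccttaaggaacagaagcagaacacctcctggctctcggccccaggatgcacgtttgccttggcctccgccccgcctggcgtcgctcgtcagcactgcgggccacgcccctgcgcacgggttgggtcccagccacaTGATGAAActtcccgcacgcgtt
Nupr1: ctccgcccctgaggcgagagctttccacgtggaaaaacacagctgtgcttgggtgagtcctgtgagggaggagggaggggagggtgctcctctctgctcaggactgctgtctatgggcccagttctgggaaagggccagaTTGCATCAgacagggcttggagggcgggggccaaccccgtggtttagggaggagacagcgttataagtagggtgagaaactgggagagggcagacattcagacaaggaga
Trib3: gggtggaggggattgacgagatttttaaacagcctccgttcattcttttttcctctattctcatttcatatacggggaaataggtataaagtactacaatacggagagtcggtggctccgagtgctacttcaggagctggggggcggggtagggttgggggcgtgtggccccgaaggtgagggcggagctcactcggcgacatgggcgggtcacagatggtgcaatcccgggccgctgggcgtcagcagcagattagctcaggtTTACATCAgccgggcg

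All 10 members had a promoter window of 250 bases before to 50 bases after the gene start. Counting the start base as 0, the composite match lay at -23 to -16 in Asns, at -110 to -103 in Nupr1 and at 14 to 21 in Trib3, where it follows the start. These were 3 of 10 members, against 3.97% of the 32851 windows of that length in the table. The core of the hypoxia response element, ACGTG or GCGTG on either strand, was found in 9 of 10 members, all but Sesn2, against 43.8% of windows. No composite match overlapped a hypoxia core match in any member. A match is a run of letters in the window and says nothing of binding in these cells.

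The deposited values are scaled to a common trimmed mean, so a likeness in overall level is partly set by that scaling. Median signals were 15.9 to 19.3 units, lowest in the array after cyclic hypoxia and reoxygenation. The floor of 2.10 units is the 20th percentile of all values, and 18.4% to 21.2% of the values of an array were at it. The array after cyclic hypoxia and reoxygenation stood apart, with a mean correlation across genes of 0.940 with the other arrays, against 0.962 to 0.966 for the other 5. All 8 melanocyte markers passed the filter, with mean signals of 336 to 6064 units. Their summed signal was 21173 to 25097 units in hypoxia and 19249 to 21413 units in normoxia. The sum does not show single markers, such as Mitf, which was lower in cyclic hypoxia. Mitf had 635 units after cyclic hypoxia with reoxygenation, against 2568 units in normoxia plus 1 h. At the end it had 1256 units in cyclic hypoxia, against 2366 units in normoxia. Of the markers of other cell types, 0 of 6 for fibroblasts and 0 of 4 for endothelium passed, as did 2 of 5 for immune cells and 1 of 3 for keratinocytes. As a yardstick, the 2 normoxia arrays differed with an SD of 0.24 (log2) over 5127 genes of 50 units or more on average, and the middle 95% of those differences ran from -0.50 to 0.47.

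Most members stood higher in hypoxia than in normoxia. In 7 of 10, all 4 hypoxia arrays lay above both normoxia arrays, which 9.13% of all genes did. The exceptions were Ddit3, Sesn2 and Gtpbp2. The lowest hypoxia and highest normoxia signals were close in Asns (1412 and 1341 units), Atf4 (942 and 811), Cebpb (107 and 91.6) and Nupr1 (90.9 and 77.6). They were further apart in Slc3a2 (985 and 642 units), Trib3 (231 and 112) and Ppp1r15a (81.6 and 42.4). The second Atf4 probe set overlapped, with 261 units in cyclic hypoxia and 304 units in normoxia at the end. Leaving out the array after cyclic hypoxia and reoxygenation, it was again 7 of 10, against 13.4% of genes. In bulk RNA, more signal per cell and more cells carrying the signal cannot be told apart.

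**Figure D1:**
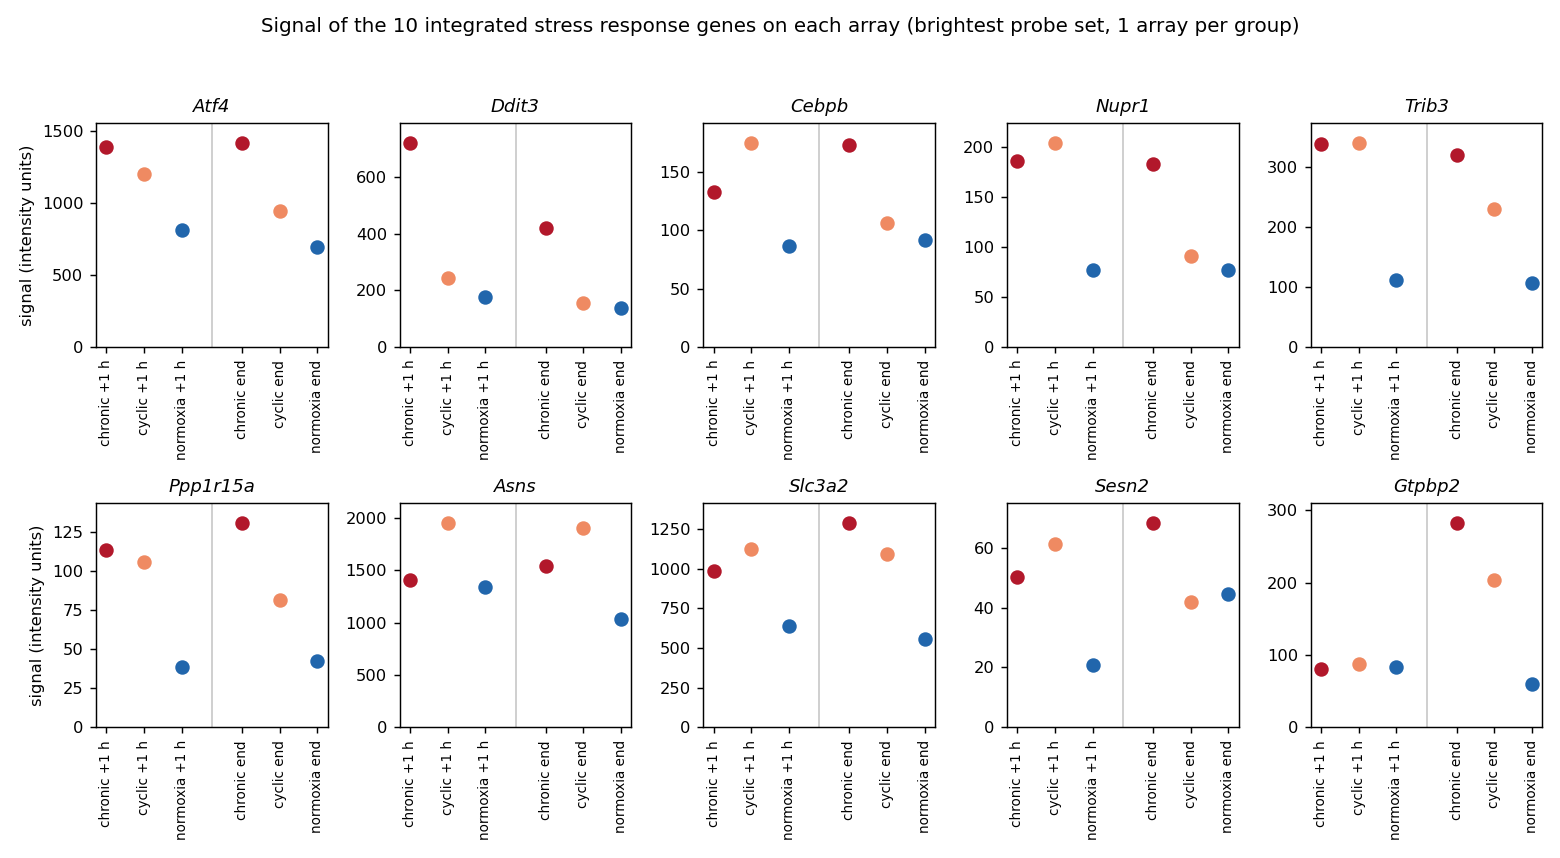
Signal in intensity units on a linear axis from 0, 1 panel per gene and 1 point per array, with the collection 1 h after exposure left of the grey line and the collection at the end right of it (red chronic hypoxia, orange cyclic hypoxia, blue normoxia). Ddit3 is set apart by its chronic hypoxia arrays (720 and 420 units), and Gtpbp2 is high only in the hypoxia arrays collected at the end (282 and 204 units).

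Among the transcription factors, Ddit3 stood out by regime: of the 10 members it had the largest difference of chronic minus cyclic hypoxia at both collections. Ddit3 had 720 units after chronic and 243 units after cyclic hypoxia with reoxygenation, against 177 units in normoxia plus 1 h. At the end of exposure Ddit3 had 420 units in chronic and 156 units in cyclic hypoxia, against 137 units in normoxia. Both chronic arrays were above all others, while the cyclic end array lay between the normoxia arrays. CHOP, its product, is a C/EBP-family protein known for its role in stress-induced cell death. The log2 differences of Ddit3 from normoxia were 2.02 for chronic and 0.46 for cyclic hypoxia 1 h later, and 1.62 and 0.19 at the end. Chronic minus cyclic was 1.57 at 1 h and 1.43 at the end. Among 7746 genes, Ddit3 ranked 36th and 64th from the top for chronic hypoxia (1 h later and end), and 1143rd and 2336th for cyclic hypoxia.

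Atf4 encodes the factor at the centre of the response. Atf4 had 1387 units after chronic and 1198 units after cyclic hypoxia with reoxygenation, against 811 units in normoxia plus 1 h. At the end Atf4 had 1415 units in chronic and 942 units in cyclic hypoxia, against 695 units in normoxia. All 4 hypoxia arrays were above both normoxia arrays, the cyclic end array being the closest. The differences from normoxia were 0.77 and 0.56 (chronic and cyclic) 1 h later and 1.03 and 0.44 at the end.

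Cebpb encodes C/EBP beta, which can pair with ATF4 on DNA. Cebpb had 133 units after chronic and 175 units after cyclic hypoxia with reoxygenation, against 87.0 units in normoxia plus 1 h. At the end Cebpb had 173 units in chronic and 107 units in cyclic hypoxia, against 91.6 units in normoxia. The hypoxia arrays did not overlap the normoxia arrays, and which regime was higher differed between the collections. Nupr1, a small stress-induced nuclear protein, had 186 units after chronic and 204 units after cyclic hypoxia with reoxygenation, against 77.6 units in normoxia plus 1 h. At the end Nupr1 had 183 units in chronic and 90.9 units in cyclic hypoxia, against 77.5 units in normoxia. Nupr1 was thus near its normoxia level in 1 hypoxia array, cyclic hypoxia at the end, with a difference of 0.23, and between 1.24 and 1.40 in the other 3.

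The feedback genes were among the members furthest from normoxia. Trib3 encodes a pseudokinase that binds ATF4 and dampens it. Trib3 had 338 units after chronic and 340 units after cyclic hypoxia with reoxygenation, against 112 units in normoxia plus 1 h. At the end Trib3 had 320 units in chronic and 231 units in cyclic hypoxia, against 106 units in normoxia. The differences were 1.59 and 1.60 (chronic and cyclic) 1 h later and 1.59 and 1.12 at the end, so Trib3 alone among the members was past 2-fold in all 4 contrasts. Ppp1r15a encodes GADD34, which brings protein phosphatase 1 to eIF2 and reverses its phosphorylation. Ppp1r15a had 114 units after chronic and 106 units after cyclic hypoxia with reoxygenation, against 38.8 units in normoxia plus 1 h. At the end Ppp1r15a had 131 units in chronic and 81.6 units in cyclic hypoxia, against 42.4 units in normoxia. Its differences were 1.55 and 1.45 at 1 h and 1.63 and 0.95 at the end. For both feedback genes every hypoxia array was clear of both normoxia arrays.

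Asns, which encodes asparagine synthetase, had the smallest mean of the 4 differences from normoxia among the members, 0.51. Those differences were 0.07 and 0.54 (chronic and cyclic) 1 h later and 0.57 and 0.88 at the end. Asns had 1412 units after chronic and 1948 units after cyclic hypoxia with reoxygenation, against 1341 units in normoxia plus 1 h. At the end Asns had 1539 units in chronic and 1907 units in cyclic hypoxia, against 1039 units in normoxia. Cyclic was above chronic at both collections, with chronic minus cyclic differences of -0.46 at 1 h and -0.31 at the end. Slc3a2 encodes the CD98 heavy chain shared by several amino acid transporters. Slc3a2 had 985 units after chronic and 1128 units after cyclic hypoxia with reoxygenation, against 642 units in normoxia plus 1 h. At the end Slc3a2 had 1287 units in chronic and 1097 units in cyclic hypoxia, against 555 units in normoxia. Its differences were 0.62 and 0.81 at 1 h and 1.21 and 0.98 at the end.

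In Sesn2 and Gtpbp2 the hypoxia and normoxia arrays overlapped. Sesn2 encodes a leucine sensor that restrains mTORC1. Sesn2 had 50.2 units after chronic and 61.3 units after cyclic hypoxia with reoxygenation, against 20.7 units in normoxia plus 1 h. At the end Sesn2 had 68.1 units in chronic and 41.9 units in cyclic hypoxia, against 44.6 units in normoxia. The normoxia arrays themselves differed by -1.11, so the differences of 1.28 and 1.57 (chronic and cyclic) at 1 h are set against a low normoxia value. Gtpbp2 encodes a GTP-binding protein that works in the rescue of stalled ribosomes. Gtpbp2 had 81.3 units after chronic and 87.7 units after cyclic hypoxia with reoxygenation, against 83.4 units in normoxia plus 1 h. At the end Gtpbp2 had 282 units in chronic and 204 units in cyclic hypoxia, against 59.9 units in normoxia. Its differences were 2.24 and 1.77 at the end, ranks 35 and 32 among all genes, and -0.04 and 0.07 at 1 h.

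**Figure D2:**
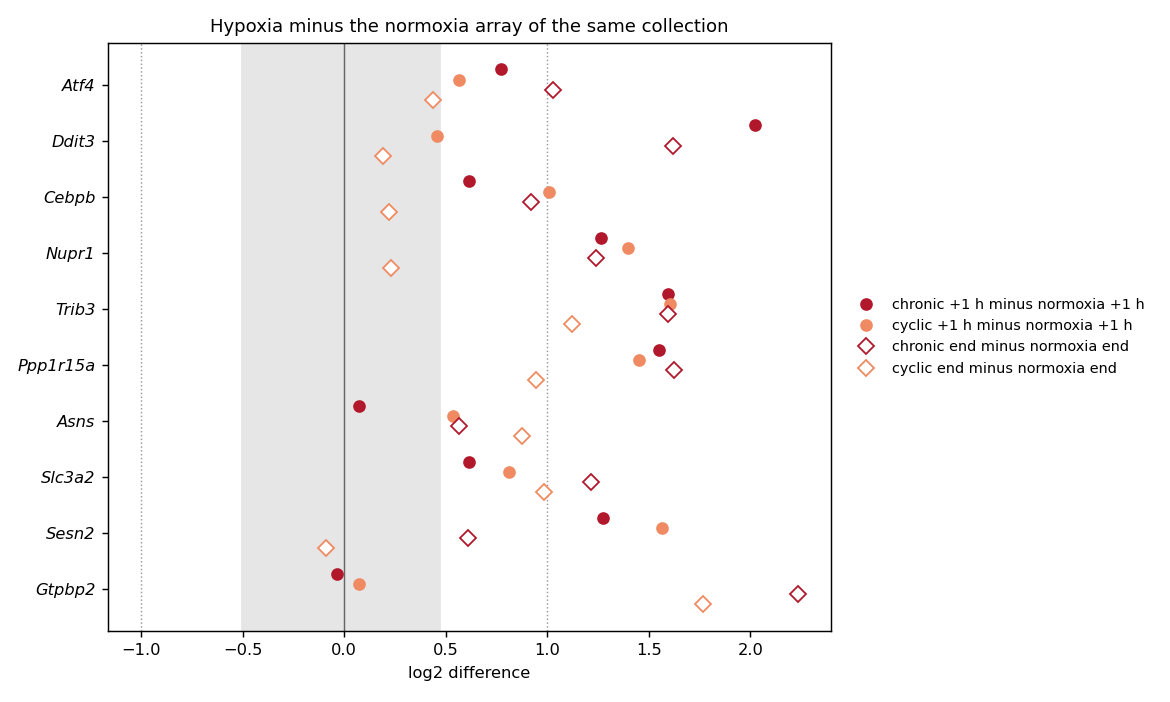
Log2 difference of each hypoxia array from the normoxia array of the same collection for the 10 genes, with filled circles 1 h after exposure and open diamonds at the end (red chronic, orange cyclic). The grey band is the middle 95% of the normoxia differences (-0.50 to 0.47) and dotted lines mark 2-fold, and Trib3 is the only gene with all 4 points beyond the upper line.

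Counted over the members, 5 exceeded normoxia by 2-fold or more 1 h after chronic hypoxia (2.98% of all genes did) and 5 did so 1 h after cyclic hypoxia (3.56%). At the end 7 were at least 2-fold higher in chronic hypoxia (2.53% of all genes) and 2 in cyclic hypoxia (2.12% of all genes). The number at least 2-fold lower was 0 in each of the 4 contrasts, against 1.12% (chronic) and 10.6% (cyclic) of genes 1 h later and 2.36% and 5.44% at the end. At 1.5-fold, 8 members were higher for chronic (8.82% of genes) and 6 for cyclic hypoxia (10.0%) 1 h later, and 9 (7.91%) and 5 (8.44%) at the end. The median difference of the members was 1.02 for chronic and 0.91 for cyclic hypoxia 1 h later, and 1.23 and 0.66 at the end. The medians of all genes in those contrasts lay between -0.03 and 0.00. At each collection both regimes were set against 1 and the same normoxia array.

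In the hour after chronic hypoxia, 0 members reached 2-fold above their level at the end (2.22% of all genes) and 1, Gtpbp2, was lower (1.45%). After cyclic hypoxia 1 was higher, Nupr1 (2.90%), and 1 was lower, again Gtpbp2 (7.47%). In normoxia 0 were higher (0.865%) and 1, Sesn2, was lower (1.87%). At 1.5-fold, 1 member was higher after chronic hypoxia, Ddit3 (6.96% of genes), and 3 after cyclic hypoxia, Ddit3, Nupr1 and Cebpb (9.36%). The median over the members was -0.16 after chronic hypoxia, 0.46 after cyclic hypoxia and 0.14 in normoxia. Gtpbp2 differed by -1.80 after chronic and -1.22 after cyclic hypoxia, against 0.48 in normoxia. Ddit3 differed by 0.78 and 0.64, against 0.37 in normoxia, so that it was also higher at 1 h in normoxia. Nupr1 differed by 0.02 and 1.17, against 0.00 in normoxia.

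**Figure D3:**
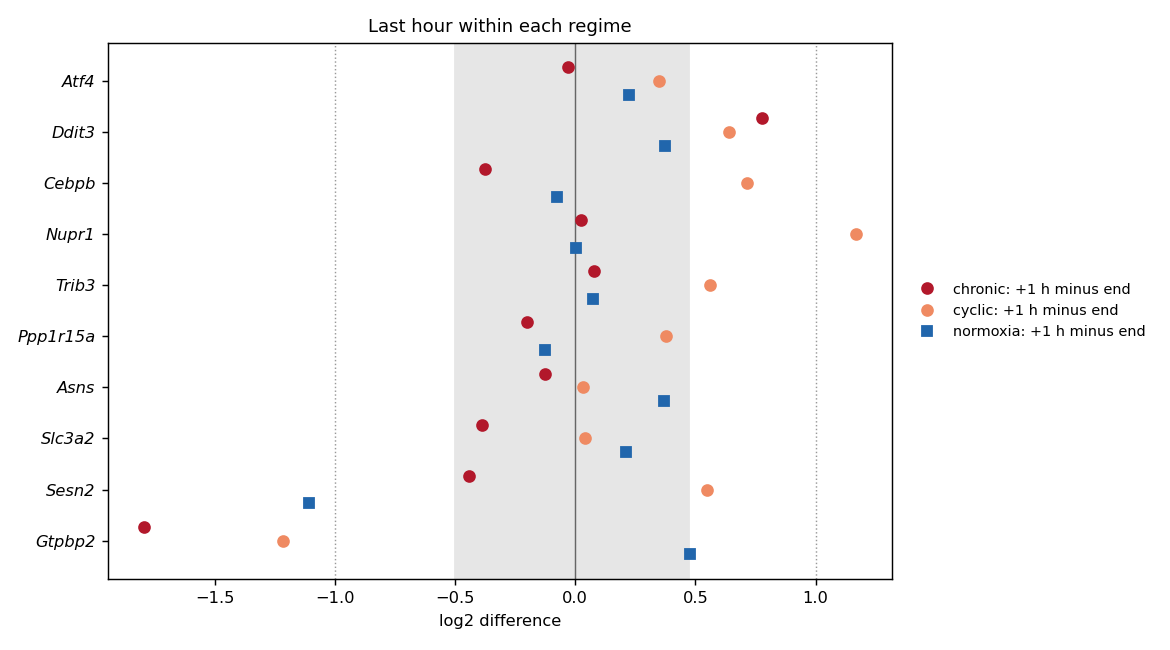
Log2 difference between the collection 1 h after exposure and the collection at its end within each regime (red circles chronic, orange circles cyclic, blue squares normoxia). The grey band is the middle 95% of the normoxia differences and dotted lines mark 2-fold, and Gtpbp2 lies beyond the lower line in both hypoxia regimes (-1.80 and -1.22) while Nupr1 lies beyond the upper line after cyclic hypoxia (1.17).

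A moderated test across all 13556 probe sets (limma, Benjamini-Hochberg adjusted) first let the collections stand in for replicates, so its errors measure how far the effects differed between collections. Ddit3 rose in chronic hypoxia, by 1.82 (SE 0.200, adjusted p = 0.0308 in limma), and was higher in chronic hypoxia than in normoxia at both collections. It was the 1 member called there, where 0.0959% of probe sets were called and 9 members had an unadjusted p under 0.05 against 5.35% of probe sets. The Ddit3 call was lost without the chronic end array (adjusted p = 0.123), without the chronic array 1 h later (0.165) and without the normoxia array plus 1 h (0.0792). It was also lost with a floor of 16 units (0.481), without the filter (0.441) and without the intensity trend (0.423). Trib3 differed by 1.59 in chronic hypoxia (limma adjusted p = 0.0630) and did not pass.

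For the mean of both hypoxia regimes limma called 0 members (0.0148% of probe sets), with 10 of 10 at an unadjusted p under 0.05 against 8.90% of probe sets. Trib3 was nearest, at 1.48 (SE 0.187, limma adjusted p = 0.0620), then Ppp1r15a at 1.39 (0.107). For cyclic hypoxia limma called 0 members and 0% of probe sets, with 6 members at an unadjusted p under 0.05 against 14.9%. For chronic minus cyclic hypoxia it also called 0 members and 0% of probe sets, with 3 members at an unadjusted p under 0.05 against 14.5%. Ddit3 differed between the regimes by 1.497 (SE 0.200, limma adjusted p = 0.127). That comparison passed without the cyclic end array (0.00483), without the normoxia end array (0.0168) and without the normoxia array plus 1 h (0.0181), where 9.83%, 0.531% and 0.465% of probe sets were called.

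These counts depended on single arrays. Without 1 array of a regime, the effect of that regime is fitted to its remaining array alone. The error then comes only from how the other regimes differed between collections. The counts that follow carry no spread of the effect of that regime and describe only how the fit reacts. Without the cyclic end array limma called 8 members for mean hypoxia, 6 for chronic and 6 for cyclic hypoxia, with 3.82%, 0.479% and 9.35% of probe sets called. Without the array after cyclic hypoxia and reoxygenation it called 4, 6 and 0 members, with 0.420%, 0.516% and 0.155% of probe sets. Without the normoxia array plus 1 h it called 1 member for mean hypoxia, Gtpbp2 (0.111% of probe sets). Without the chronic array 1 h later it called 1 for cyclic hypoxia, Trib3 (0.509%).

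Another fit gave each collection its own hypoxia effect and held a term for the regime difference, so the regimes were not replicates in it. Its 1 residual degree of freedom measured how far the regime difference changed between collections, and not the spread between regimes. This fit called 0 members 1 h later (0.00738% of probe sets) and 0 at the end (0.0738%). Unadjusted, 8 members 1 h later and 7 at the end had p under 0.05 in limma, against 5.98% and 6.81% of probe sets. Gtpbp2 differed by 2.00 at the end (SE 0.335, limma adjusted p = 0.0633) and by 0.02 1 h later. The change in the hypoxia effect over the last hour called 0 members (0.0148%), with 1 member, Gtpbp2, at an unadjusted p under 0.05 against 4.02%. For Gtpbp2 it was -1.98 (SE 0.473, limma adjusted p = 0.633). Without the term for the regime difference, the regimes served as replicates of each other. That fit called 0 members and 0% of probe sets 1 h later, at the end and for the change.

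Of 19 probe sets for the 10 genes, 18 passed the filter, and for some genes they disagreed. The other 2 Gtpbp2 probe sets (mean signals of 100.4 and 31.2 units) differed from normoxia by 0.29 and 0.57 in chronic hypoxia at the end, where the brightest differed by 2.24. In cyclic hypoxia at the end they differed by 0.41 and 0.45, against 1.77. The pattern of Gtpbp2 therefore rests on 1 probe set of 3. The second Atf4 probe set was higher mainly at 1 h, by 1.06 after chronic and 1.05 after cyclic hypoxia, against 0.25 and -0.22 at the end. The second Sesn2 probe set, with a mean of 20.1 units, did not follow the first, at -0.66 and -0.17 at 1 h and 0.06 and -0.61 at the end. For Trib3 the second probe set gave 1.40 and 1.44 at 1 h and 1.34 and 0.94 at the end, close to the first. The Nupr1 and Asns probe sets also lay above normoxia in all 4 contrasts, and the dim second Cebpb probe set gave 1.79 and 1.45 at the end.

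**Figure D4:**
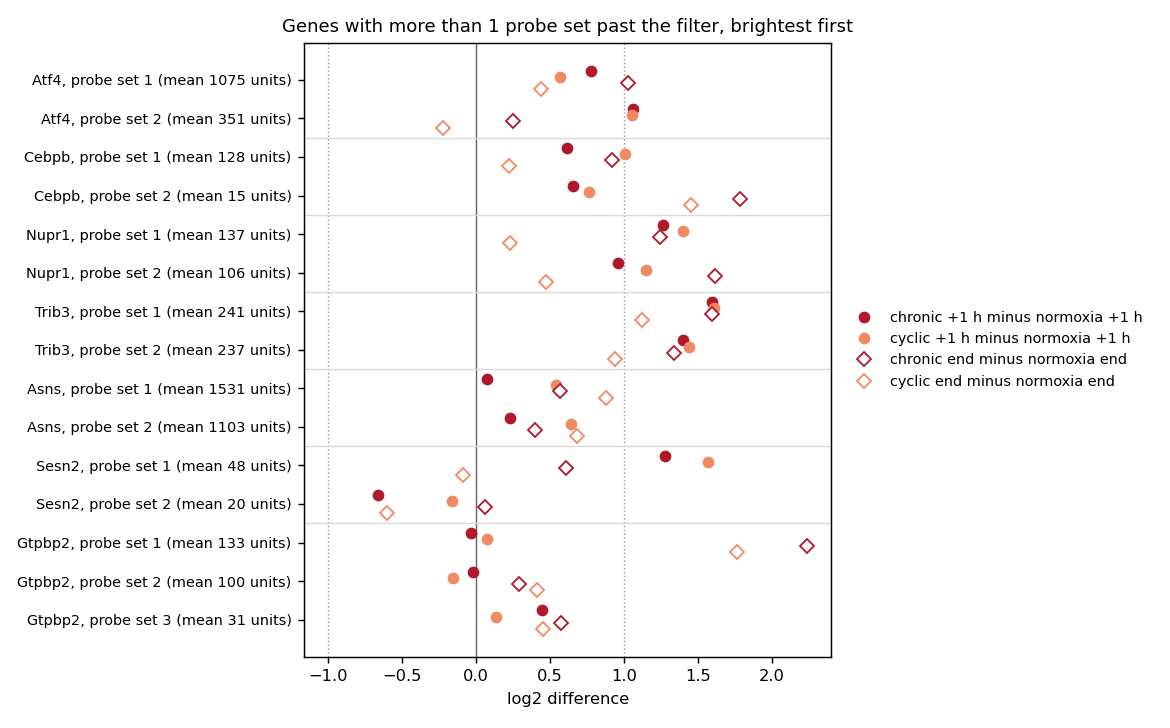
Log2 differences from normoxia for the genes with more than 1 probe set past the filter, brightest first with its mean signal (filled circles 1 h later, open diamonds at the end, red chronic, orange cyclic). The Trib3 probe sets lie together, while the brightest Gtpbp2 probe set (2.24 and 1.77 at the end) stands apart from the other 2.

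The members followed one another to different degrees. Over the 45 pairs of members the Pearson correlation of log2 signal over the 6 arrays had a median of 0.74, from 0.12 for Ddit3 and Asns to 0.98 for Trib3 and Ppp1r15a. All pairs share the same 6 arrays. Among 5118 other genes averaging 50 units or more, those closest to the mean profile of the 9 members that also averaged 50 units or more (all but Sesn2) were Actg1 (0.996), Pgk1 (0.994), Pgam1 (0.985), Uhrf1bp1 (0.983), Pfkl (0.983) and Alkbh5 (0.981). Pgk1, Pgam1 and Pfkl encode glycolytic enzymes and Actg1 a cytoplasmic actin. The correlation takes no account of the size of a difference. Actg1 ran from 3227 to 4474 units over the 6 arrays, and Pfkl from 147 to 380 units. Closest to Ddit3 alone were Tpt1 (0.985), Naca (0.969), Ddit4 (0.967), Bhlhe40 (0.961), Hilpda (0.960) and Fos (0.957). Tpt1 ran only from 4710 to 6923 units, where Ddit3 ran from 137 to 720 units. Ddit4 (REDD1, an mTORC1 inhibitor) had 656 units after chronic and 143 units after cyclic hypoxia with reoxygenation, against 126 units in normoxia plus 1 h.

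Related genes of the pathway were described as 5 lists, in none of which limma called a gene for mean, chronic or cyclic hypoxia. The list counts stand beside the shares of all genes that were 2-fold or more higher, 2.98% for chronic and 3.56% for cyclic hypoxia at 1 h and 2.53% and 2.12% at the end. The shares lower were 1.12% and 10.6% at 1 h and 2.36% and 5.44% at the end. With 15 to 22 genes a list, 1 gene is already above most of these shares. Of 22 measured other targets of ATF4 and CHOP, 4 exceeded normoxia by 2-fold or more 1 h after chronic and 3 at 1 h after cyclic hypoxia, and 4 and 2 at the end, with 0 lower. Their medians were 0.29 and 0.29 at 1 h and 0.45 and 0.25 at the end. Herpud1, which serves in degradation from the endoplasmic reticulum, differed by 0.82 and 1.46 at 1 h and 1.48 and 1.59 at the end. Ero1a, an oxidase of the endoplasmic reticulum, differed by 2.21 and -0.38 at 1 h and 2.70 and 1.28 at the end. Its other 2 probe sets gave 0.21 and 0.64 for cyclic hypoxia at 1 h, against -0.38. Bcl2l11, the cell death gene BIM, had the lowest average in its list, at -0.63 and -0.82 at 1 h and 0.41 and -0.95 at the end. Its other 3 probe sets ran from -0.89 to 0.07 (chronic) and from -2.15 to -0.57 (cyclic) at 1 h. At the end they ran from 0.01 to 0.07 and from -0.88 to -0.50.

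Of 19 measured genes of amino acid supply, 1 exceeded normoxia by 2-fold or more 1 h after chronic and 7 at 1 h after cyclic hypoxia, and 1 and 1 at the end, with 0 lower. The medians were 0.29 and 0.71 at 1 h and 0.35 and 0.45 at the end. Slc7a5, the transporter light chain that pairs with the Slc3a2 product, differed by 0.83 and 1.03 at 1 h and 0.63 and 0.96 at the end. Phgdh, which starts serine synthesis, was the lowest on average, at -0.18 and 0.33 at 1 h and 0.02 and 0.20 at the end. Its other 3 probe sets ran from -0.19 to 0.11 (chronic) and from 0.24 to 0.45 (cyclic) at 1 h. At the end they ran from -0.43 to -0.003 and from -0.38 to 0.10. Chac1, a glutathione-degrading enzyme named after its values were seen, was like Ddit3 in its regimes, at 1.19 and 0.04 at 1 h and 1.5 and -0.43 at the end.

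Of 15 measured ATF and C/EBP factors, 0 were at least 2-fold higher and 1 lower after chronic hypoxia with reoxygenation, and 2 and 2 after cyclic hypoxia. At the end 1 was higher in each regime and 0 were lower. Some of these genes were dim. The 1 lower after chronic hypoxia with reoxygenation, Cebpd, had 1.65 units, under the floor, against 7.30 units in normoxia plus 1 h. The 1 higher in cyclic hypoxia at the end, Creb1, had 21.6 units against 9.65 units in normoxia. The medians were 0.11 and 0.06 at 1 h and 0.19 and 0.03 at the end. Atf3, a stress-induced factor that is also among the targets above, had 41.0 units after chronic and 55.4 units after cyclic hypoxia with reoxygenation, against 25.1 units in normoxia plus 1 h. At the end Atf3 had 106 units in chronic and 25.2 units in cyclic hypoxia, against 21.5 units in normoxia. Atf3 was thus high at different collections in the 2 regimes. Cebpg, another ATF4 partner, had the lowest average, at 0.48 and -1.92 at 1 h and 0.52 and -0.42 at the end. Its other 2 probe sets gave -0.75 and -0.31 for cyclic hypoxia at 1 h, against -1.92.

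Of 16 measured kinase, eIF2 and eIF2B genes, 0 were at least 2-fold higher and 0 lower after chronic hypoxia with reoxygenation, and 0 and 3 after cyclic hypoxia. At the end the numbers were 0 and 0 in chronic and 1 and 1 in cyclic hypoxia. The medians were 0.12 and -0.09 at 1 h and 0.11 and 0.17 at the end. Eif2ak3, which encodes PERK, differed by 0.39 and -0.10 at 1 h and 0.46 and 1.21 at the end. Ppp1cb, a catalytic subunit of protein phosphatase 1, differed by 0.32 and -1.65 at 1 h and -0.53 and -1.12 at the end. Its other 3 probe sets ran from 0.18 to 0.35 (chronic) and from -1.28 to -0.43 (cyclic) at 1 h. At the end they ran from -1.06 to -0.82 and from -1.59 to -1.17. Of 19 measured genes of endoplasmic reticulum folding and degradation, 0 exceeded normoxia by 2-fold or more 1 h after either regime, with 1 lower after cyclic hypoxia. At the end 0 and 1 were higher and 0 were lower. The medians were 0.11 and 0.23 at 1 h and -0.04 and 0.26 at the end. Creld2, a secreted stress protein, differed by 0.00 and 0.87 at 1 h and 0.93 and 1.28 at the end. Hsp90b1, the chaperone GRP94, differed by 0.44 and -1.03 at 1 h and -0.39 and -0.63 at the end. Its other probe set gave -0.30 and -1.70 at 1 h and 0.84 and 0.86 at the end.

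**Figure D5:**
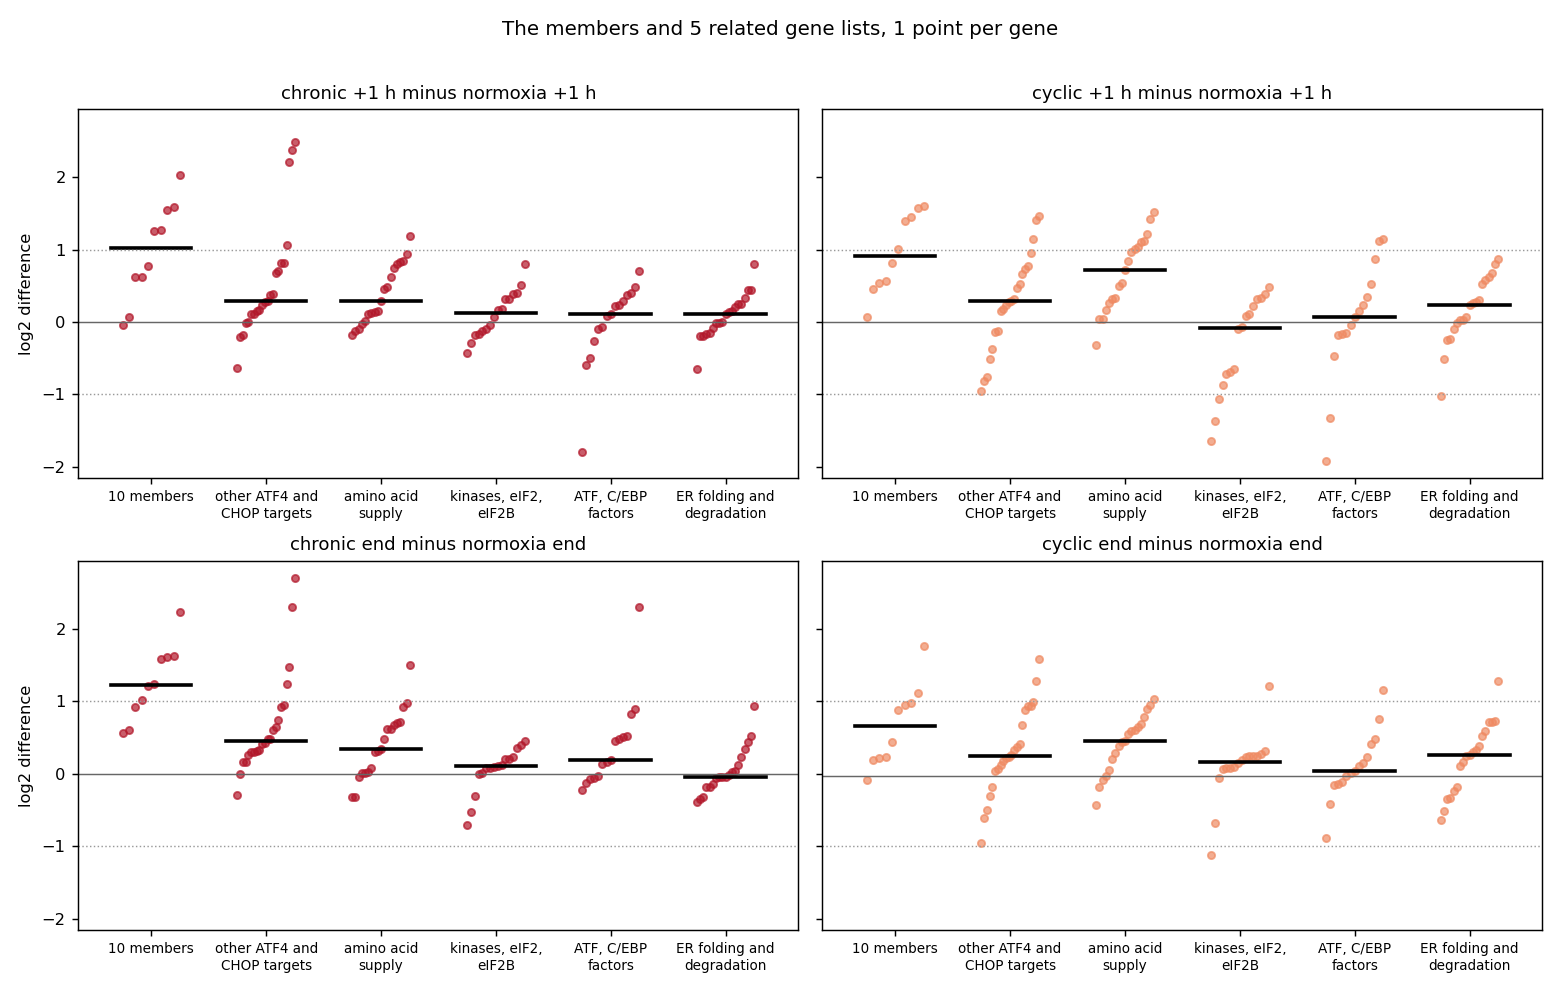
Log2 difference from normoxia in each contrast for the 10 members and 5 related lists, 1 point per gene with the black bar at the list median, the grey line at the median of all genes and dotted lines at 2-fold. The members' medians are 1.02 and 0.91 (chronic and cyclic) 1 h later and 1.23 and 0.66 at the end, and the medians of the 5 lists lie between -0.09 and 0.71.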

How the data were processed

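Total RNA from B16 cells was hybridised as biotin-labelled cRNA, 1 array per group. The authors deposited 1 linear intensity per probe set and array for 22690 probe sets, scaled to a common trimmed mean. The submitters' processing notes name GCOS, whose version and algorithm are not given in the sources used here. Those values were kept, set to a floor of 2.10 units (the 20th percentile of all values) and put on a log2 scale. Probe sets with a mean under 8.33 units (the 40th percentile of means) and the 64 controls were dropped, leaving 13556 probe sets. Array values carry no counts, so the number of arrays limits the precision.

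Genes were named through Entrez identifiers (20393 probe sets named 1 gene), and each gene was taken by its brightest probe set. The members and lists were chosen with earlier results of these data known. Each list gene named is 2-fold or more from normoxia in both hypoxia arrays of a collection in 1 direction, or has the highest or lowest mean difference of its list. The exceptions are Ddit4, named among the 6 genes most like Ddit3 over the arrays, and Chac1, chosen after its values were seen. Cebpd and Creb1 are further exceptions, named to show the low signals behind their counts. Single-array differences were counted without a test. Moderated tests were run in limma 3.58.1 (R 4.3.3) with an intensity trend and Benjamini-Hochberg adjustment at 0.05. The additive fit had terms for regime and for collection and left 2 residual degrees of freedom. A second fit let the hypoxia effect differ by collection and had a term for cyclic against chronic hypoxia (1 residual degree of freedom). Both were run on simulated data with known changes and independent noise sized from the normoxia arrays. No array stood apart in those data, so that run does not cover the dependence on single arrays. Alternatives were other floors, a pseudocount of 16, no filter, no trend, median centring, quantile normalization, the mean over probe sets, a 1.5-fold threshold and leaving out each array. The chronic minus cyclic test, the second fit without a regime term, and the overlap count without the array after cyclic hypoxia and reoxygenation were added after seeing the data.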

Additional observations from a re-analysis of the deposited data

Results flagged for a closer look

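For 6 members the difference over the last hour, 1 h later minus the end of exposure, had opposite signs after chronic and cyclic hypoxia. With 1 array on each side, none of these differences between regimes was tested. Cebpb was at -0.38 after chronic and 0.71 after cyclic hypoxia, and Sesn2 at -0.44 and 0.55. Atf4 was at -0.029 and 0.35, Ppp1r15a at -0.20 and 0.38, Slc3a2 at -0.39 and 0.040, and Asns at -0.12 and 0.031. For 3 of these members the signs were the same under 1 alternative. With quantile normalization Asns was at -0.14 and -0.17 and Slc3a2 at -0.42 and -0.054, and with the mean over probe sets Atf4 was at 0.19 and 0.61. Several of these values lie within the middle 95% of differences between the normoxia arrays (-0.50 to 0.47).

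For Gtpbp2 and Sesn2 the difference from normoxia had opposite signs at the collections, which was not tested in the single arrays. Gtpbp2 in chronic hypoxia was at -0.036 at 1 h and 2.24 at the end, but at 0.13 and 1.03, with no change of sign, with the mean over probe sets. Sesn2 in cyclic hypoxia was at 1.57 at 1 h and -0.090 at the end.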

How the results depend on the processing

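None of the counts or medians, and no difference of 2-fold or more, changed sign under an alternative, but smaller values did: 7 array differences and 12 fitted values. The array differences were, with the mean over probe sets, Gtpbp2 in chronic hypoxia at 1 h (0.13), Atf4 (0.19) and Nupr1 (-0.14) over the hour after chronic hypoxia, and Atf4 (-0.092) and Cebpb (0.30) over that hour in normoxia, and, with quantile normalization, Asns (-0.17) and Slc3a2 (-0.054) over the hour after cyclic hypoxia. For chronic minus cyclic hypoxia, the fitted value leaving out 1 array ran from -0.32 to 0.62 for Cebpb, -0.14 to 1.02 for Nupr1, -0.24 to 0.27 for Slc3a2, -0.53 to 0.89 for Gtpbp2, -0.46 to 0.87 for Sesn2 and -0.0099 to 0.47 for Trib3. Slc3a2 was at -0.095 there with median centring. For cyclic hypoxia Gtpbp2 ran from -0.072 without the normoxia end array to 1.91 without the normoxia array plus 1 h. The last-hour change of Atf4 was 0.0098 with median centring. None of these fitted values passed the test where its sign changed.

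Of the differences of single members between arrays, 408 values stayed close and 12 moved, all of them for Atf4, Cebpb, Sesn2 or Gtpbp2, and of the fitted values 685 kept their direction and their side of the threshold, 57 came to pass it and 6 no longer did. No paired analysis was possible because each group has 1 array and the replicate numbers pair nothing.

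With the mean over all probe sets of a gene, the members 2-fold or more higher were 3 for cyclic hypoxia at 1 h and 1 at the end, and those lower over the last hour were 0 after chronic hypoxia, 0 after cyclic hypoxia and 0 in normoxia. At 1.5-fold, 8 were higher for chronic hypoxia at 1 h, 5 for cyclic hypoxia at the end, and 1 and 3 over the last hour after chronic and cyclic hypoxia. With log2(signal + 16) the number lower in normoxia over the last hour was 0.

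The limma counts moved most, and the cause was not tested. Counts leaving out 1 array carry no spread of the effect of the regime left with 1 array. For chronic hypoxia the count of members called was 0 with a floor of 16 units, without the filter and without the trend, 2 with log2(signal + 16) or quantile normalization, 3 with median centring, and 0 to 6 leaving out 1 array. For mean hypoxia it was 1 with log2(signal + 16) or quantile normalization, 3 with median centring, and 0 to 8 leaving out 1 array. For cyclic hypoxia it was 3 with median centring and 0 to 6 leaving out 1 array. For chronic minus cyclic hypoxia it was 1 with median centring and 0 to 1 leaving out 1 array. In the fit by collection, median centring gave 4 members at 1 h and 2 at the end, quantile normalization 1 and 3, and log2(signal + 16) 1 at the end. The change over the last hour gave 0 in every alternative run. Leaving out an array was not run there. Without a hypoxia array no residual degrees of freedom remain, and without a normoxia array the change cannot be estimated. Median centring moved the median of all genes by 0.19 in the cyclic contrasts with reoxygenation. Dim probe sets such as those of Sesn2 lie nearest to background.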
